A study of Mus musculus with 12 samples.

Results

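Nuclei that carried Lamp5 together with a GABA synthesis gene were isolated computationally from single-nucleus RNA sequencing of 12 libraries of dissected mouse hippocampus. They were chosen by their own UMI counts (unique molecular identifiers, each standing for 1 captured transcript). A nucleus with 500 to 10000 detected genes was kept when it held at least 1 UMI of Gad1 or Gad2, at least 1 of Lamp5 and at least 1 of Ndnf, Reln or Kit. It also had to hold no UMI of Vip, Sst, Pvalb, Rgs9, Slc17a7 or Slc17a6 and fewer than 2 of Mobp. The rule found 482 nuclei among 184957, or 0.261%, and 0.924% of the 52176 inhibitory nuclei, those with Gad1 or Gad2 that met the same limits on Slc17a7, Slc17a6 and Mobp. They are called Lamp5 and Gad nuclei here. Each library gave 28 to 57 of them.

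The left hippocampus was taken from female 3xTg-AD mice and wild-type (WT) littermates of 6 and 12 months, with 3 libraries in each of the 4 groups. 3xTg-AD mice carry, among their engineered alleles, human APPSwe and tauP301L transgenes, and model amyloid and tau pathology of Alzheimer's disease. Nuclei came from snap-frozen tissue and were sorted by flow cytometry, and the study reports that all libraries were sequenced in a single batch. A library held 79177051 to 128323908 UMIs in all, while the Lamp5 and Gad nuclei of a library, summed, held 253811 to 568591. The labels give 1 library per sample and nothing that pairs samples across groups. The p-values below measure the spread between these libraries. In a sum over nuclei, a lower level may come from fewer nuclei of a kind or from less RNA per nucleus, so shares of nuclei with a UMI and values within Erbb4-high nuclei, a kind described below, are given beside some sums.

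Lamp5, a vesicle-associated membrane protein, marks a class of cortical and hippocampal interneurons whose best known members are neurogliaform cells. Neurogliaform cells lie mostly in the layers that receive distal dendrites, release GABA in a diffuse manner and inhibit through GABAA and GABAB receptors. Reelin, nitric oxide synthase and neuropeptide Y are commonly found in them. In the hippocampus, related cells called ivy cells also hold nitric oxide synthase and neuropeptide Y. They arise from the medial ganglionic eminence, an embryonic source of interneurons marked by the transcription factor Lhx6. Other Lamp5 cells arise from the caudal ganglionic eminence.

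The rule itself fixed which genes were present. Reln was found in 403 of the 482 nuclei, Kit, a receptor tyrosine kinase, in 144 and Ndnf, a secreted neuronal factor, in 126. All of Reln, Kit and Ndnf were found in 61 nuclei, and 276 nuclei qualified through Reln alone, 46 through Kit alone and 30 through Ndnf alone. Lamp5 was represented by a single UMI in 329 nuclei and by 2 or more in 153. Just outside the rule, 7124 nuclei failed only for want of a Lamp5 UMI, 1196 failed only through Rgs9, 674 had Lamp5 but none of Reln, Ndnf or Kit, 71 failed only through Slc17a7 or Slc17a6, 45 only through Sst and 12 only through Mobp, 3 of them with exactly 2 UMIs. The nuclei excluded by Rgs9 alone carried Meis2, a homeobox transcription factor of striatal, septal and other forebrain neurons, in 93.8% of cases.

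The label of neurogliaform interneurons held for a share of these nuclei only. Among 16 Lamp5 interneuron markers that the rule did not use, Sv2c, a synaptic vesicle protein, was found in 63.3% of the nuclei, Nos1, the neuronal nitric oxide synthase, in 22.6%, Hapln1, a hyaluronan link protein, in 20.7%, Id2, a transcriptional inhibitor, in 13.1% and Npy, neuropeptide Y, in 9.96%. Krt73 was found in 0 of 482, which allows a share of nuclei with a UMI of up to 0.622%, and Lsp1 was found in 0.415%. At least 2 of the 16 were found in 263 nuclei (54.6%). That share was 27.4% in the nuclei that failed the rule only for want of Lamp5 (median 7228 UMIs). It was 35.9% in those with Lamp5 but none of Reln, Ndnf or Kit (median 7758 UMIs). In Mobp-high oligodendrocyte nuclei, which should lack the neuronal genes, the share with a UMI was 0.595% for Nos1, 0.468% for Hapln1, 1.15% for Id2 and 0.646% for Npy. The median depth was 9188 UMIs per nucleus in the Lamp5 and Gad nuclei, 6916 in the other inhibitory nuclei and 2764 in the Mobp-high nuclei. Nuclei were then thinned to 3000 UMIs, and those below that depth were left out (1 of 482 Lamp5 and Gad nuclei, 3096 of 48039 other inhibitory nuclei and 4534 of 7899 Mobp-high nuclei). At that depth Nos1 was seen in 11.4% of the Lamp5 and Gad nuclei, 4.86% of the other inhibitory nuclei and 0.654% of the Mobp-high nuclei. The values for Npy at that depth were 4.78%, 1.49% and 0.535%.

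Erbb4 and Meis2 divided the nuclei further. Erbb4, the neuregulin receptor of many forebrain interneurons, and Meis2 were picked after their values were seen, so the division is a description without a test. No Meis2 UMI and at least 10 Erbb4 UMIs were found in 198 nuclei (41.1%, called Erbb4-high). A further 215 nuclei (44.6%, Meis2-positive) held Meis2, and 69 (14.3%) met neither description. The split was not sharp at its limits. In the nuclei without Meis2, 51 held 5 to 20 Erbb4 UMIs, and 37 Meis2-positive nuclei also reached 10 Erbb4 UMIs. A single Meis2 UMI was all that put 13 nuclei in the Meis2-positive kind, 9 of them with 10 or more Erbb4 UMIs. Erbb4 was also plentiful in the Mobp-high nuclei, at 2030 CPM (counts scaled to a common library total), against 9510 CPM in the Erbb4-high and 520.5 CPM in the Meis2-positive nuclei. Median depth was 8476 UMIs in the Erbb4-high, 10283 in the Meis2-positive and 8362 in the remaining nuclei.

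**Figure D1:**
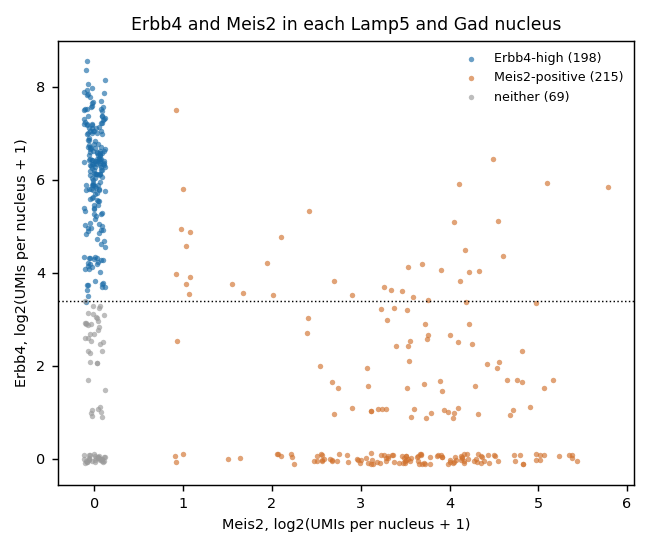
Each point is 1 Lamp5 and Gad nucleus, placed by its Meis2 (x axis) and Erbb4 (y axis) UMIs, both as log2(UMIs + 1) with a small random offset. The dotted line marks the limit of 10 Erbb4 UMIs. The 198 Erbb4-high nuclei lie at the upper left, the 215 Meis2-positive nuclei spread to the right with 120 of them at 0 Erbb4 UMIs, and 69 nuclei lie at the lower left.

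Of the unused markers of Lamp5 interneurons, Nos1, Hapln1, Id2 and Npy were more frequent in the Erbb4-high nuclei. Nos1 was found in 41.9% of them, against 7.91% of the Meis2-positive nuclei and 13.0% of the rest. Hapln1 was found in 46.0%, 1.86% and 7.25% in the same order, Id2 in 27.8%, 2.33% and 4.35%, and Npy in 23.2%, 0.465% and 1.45%. Sv2c did not divide them in this way, at 69.7%, 63.3% and 44.9%. Of the genes of the rule, Kit was found in 54.0%, 10.2% and 21.7%, and Reln in 88.9%, 80.9% and 76.8%. Ndnf was found in 34.3%, 25.1% and 5.80%, so it divided the Erbb4-high from the Meis2-positive nuclei less than Kit did. Each nucleus had to hold at least 1 of Ndnf, Reln or Kit, so the shares and levels of these genes were in part fixed by the rule. The Reln level was 1821 CPM in the Erbb4-high, 266.5 CPM in the Meis2-positive and 223.7 CPM in the remaining nuclei, and is given as a description only. At least 2 of the 16 unused markers were found in 158 of 198 Erbb4-high nuclei (79.8%), 75 of 215 Meis2-positive nuclei (34.9%) and 30 of the 69 others (43.5%).

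Other genes led each kind. In the Erbb4-high nuclei the highest ratio to the other Lamp5 and Gad nuclei belonged to Egfr, the epidermal growth factor receptor, at 372 against 13.9 CPM. It was followed by Hapln1, Kcns3, a modulatory potassium channel subunit (100.4 against 3.06 CPM), Adra1a, an adrenergic receptor (498.6 against 35.3 CPM), and Fgf13, an intracellular regulator of sodium channels (2561 against 202.5 CPM). Adarb2, an RNA-editing family member typical of interneurons from the caudal eminence, was at 3718 against 435.3 CPM. Each of these was higher in the Erbb4-high nuclei of 12 of 12 libraries. In the Meis2-positive nuclei the leading genes were Ano2, a calcium-activated chloride channel (318.4 against 6.87 CPM), G630016G05Rik (86.7 against 0.404 CPM), and Rarb, a retinoic acid receptor prominent in striatum (252.8 against 10.9 CPM). Zic1, a transcription factor of septal and other midline neurons, was found in 34.9% of the Meis2-positive against 4.04% of the Erbb4-high nuclei. Drd2, a dopamine receptor, was found in 19.5% against 4.04%. Trpm3, a cation channel, stood at 2829 CPM in the Meis2-positive nuclei against 489.2 CPM in the others. The remaining 69 nuclei had smaller leads, with Baiap3, a regulator of vesicle release (150.2 against 35.8 CPM), Tshz2 (356 against 100.2 CPM) and Rmst (597.7 against 207.2 CPM) among them. No cell type name is given to the Meis2-positive and remaining nuclei.

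**Figure D2:**
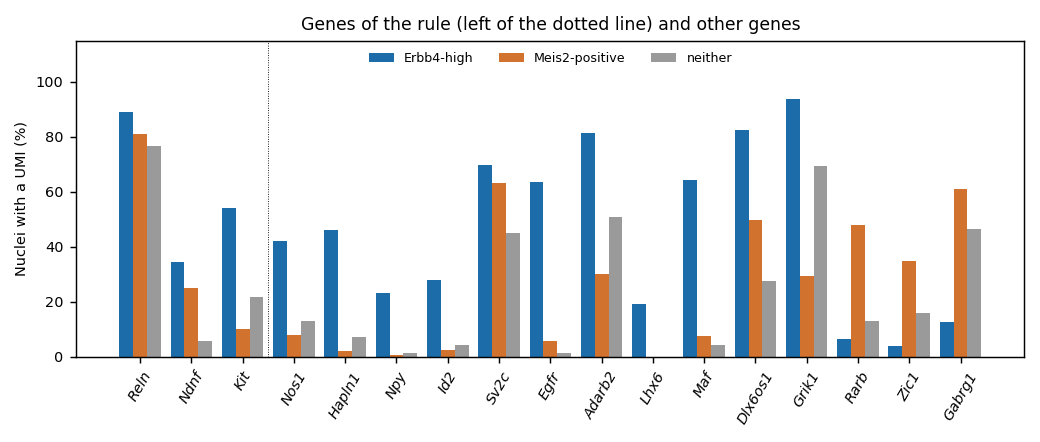
The bars give the percentage of nuclei with at least 1 UMI of each gene (y axis) in the 198 Erbb4-high, 215 Meis2-positive and 69 remaining nuclei, pooled over 12 libraries. Reln, Ndnf and Kit, left of the dotted line, were used by the rule. Nos1, Hapln1, Npy, Id2, Egfr and Maf are mostly in the Erbb4-high nuclei, Lhx6 had a UMI in 38 of them and in 0 of the others, and Rarb, Zic1 and Gabrg1 are more frequent in the Meis2-positive nuclei.

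A few genes of inhibitory and excitatory transmission, picked after their values were seen, are given for the kinds without a test. Gad1, which makes most GABA and was used by the rule, stood at 575.4 CPM in the Erbb4-high and 156.2 CPM in the Meis2-positive nuclei. The vesicular GABA transporter Slc32a1, which the rule did not use, stood at 57.4 and 48.9 CPM. Among GABAA receptor subunits, Gabrb2 stood at 880.3 against 252.8 CPM, while Gabra2 stood at 167.5 against 610.2 CPM and Gabrg1 at 30.1 against 163.9 CPM. Among glutamate receptors, the kainate receptor subunit Grik1 stood at 2430 against 261.8 CPM.

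The nuclei of each kind were present in every library in unequal proportion. The Erbb4-high share ran from 24.6% in 3xTg-AD 6m replicate 9 to 66.7% in WT 12m replicate 12, and the Meis2-positive share from 9.09% in WT 12m replicate 12 to 64.9% in 3xTg-AD 6m replicate 9. The mean Erbb4-high share was 33.2% ± 12.6 (SD, n = 3) in 3xTg-AD 6m, 41.9% ± 8.23 in WT 6m, 42.5% ± 13.7 in 3xTg-AD 12m and 50.1% ± 14.5 in WT 12m. The ranges of the 4 groups overlapped. WT 12m replicate 12 stood apart with 3 Meis2-positive nuclei among 33. The mixture of kinds enters every comparison of summed counts below. Each such comparison was repeated on the Erbb4-high nuclei alone, an alternative added after the data were seen.

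**Figure D3:**
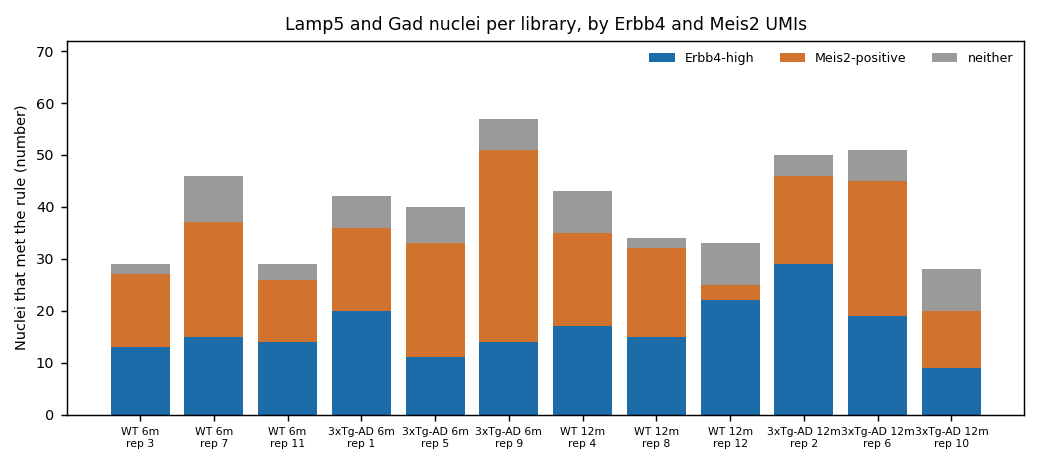
Each bar is 1 library, ordered by group, and its height is the number of Lamp5 and Gad nuclei (y axis), divided into Erbb4-high, Meis2-positive and remaining nuclei. Totals run from 28 to 57. The WT 12m replicate 12 bar holds 22 Erbb4-high and 3 Meis2-positive nuclei, and the 3xTg-AD 6m replicate 9 bar holds 14 and 37.

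Genotype and age were then compared for the abundance of Lamp5 and Gad nuclei. In 3xTg-AD 6m they made up 0.296%, 0.253% and 0.319% of the nuclei of the 3 libraries, and in WT 6m 0.239%, 0.288% and 0.184%. In 3xTg-AD 12m the values were 0.332%, 0.325% and 0.141%, and in WT 12m 0.238%, 0.257% and 0.291%. The groups overlapped at both ages. The 95% exact (Clopper-Pearson) interval of a single library was wide, for example 0.0939% to 0.204% for the lowest value and 0.247% to 0.437% for the highest, and covers counting error only. At 6 months the 3xTg-AD mean exceeded the WT mean by 0.0525 percentage points (0.289% ± 0.0337 against 0.237% ± 0.0521, SD, 3 libraries each, exact two-sided permutation of libraries, p = 0.2, where 0.1 is the smallest p that 3 against 3 allow). At 12 months the difference was 0.00395 points (0.266% ± 0.108 against 0.262% ± 0.0265, exact permutation p = 1). Over both ages, with genotypes permuted within ages, it was 0.0282 points (exact permutation p = 0.46). The libraries of 12 months differed from those of 6 months by 0.000864 points (exact permutation p = 0.975). Adjusted over the 6 tests of shares, every one of these p-values was 1.

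The difference over both ages depended on the libraries and nuclei counted. Without 3xTg-AD 12m replicate 10, the library with the lowest share, it was 0.0594 points (exact permutation p = 0.02, not adjusted and 1 of 12 such omissions). It turned to the other direction in Erbb4-high nuclei alone (-0.00721 points), with 2 unused markers required (-0.00242), after nuclei below 3000 UMIs (51966 of 184957) were left out, the rest thinned to that depth and the rule applied again, which left 183 Lamp5 and Gad nuclei (-0.000887), and as a share of inhibitory nuclei (-0.0693). At 6 months it turned with that depth limit and thinning (-0.00669) and in Erbb4-high nuclei alone (-0.00025). Set against inhibitory nuclei only, the difference at 12 months turned to the other direction, at 0.842% ± 0.209 in 3xTg-AD and 1.21% ± 0.166 in WT (SD, n = 3 each). It was -0.366 points, with an exact permutation p of 0.1, the smallest that 3 against 3 allow. The groups did not overlap (0.601% to 0.976% against 1.03% to 1.35%). The inhibitory nuclei numbered 5262, 5228 and 4660 in the 3xTg-AD 12m libraries and 3177, 3310 and 2654 in WT 12m. The part of these totals in the difference was not tested.

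Lhx6 marked a small fraction. It was found in 38 of 482 nuclei (7.88%), with 1 to 9 such nuclei per library, against 5.49% of the other inhibitory nuclei and 0.165% of the Mobp-high nuclei. After thinning to 3000 UMIs, with shallower nuclei left out, the shares were 2.70%, 2.70% and 0.0892%. Every one of the 38 was Erbb4-high, 19.2% of that kind, and Lhx6 was found in 0 of 215 Meis2-positive nuclei, which allows a share of nuclei with a UMI of up to 1.395%, and in 0 of 69 remaining nuclei, which allows up to 4.35%. At its low level (12.7 CPM) a nucleus that expresses Lhx6 may show no UMI, so these limits do not bound the nuclei that express it. Without WT 12m replicate 12, which alone held 9 of the 38, the share among Erbb4-high nuclei was 16.5%. Over both ages the mean share of Lamp5 and Gad nuclei with Lhx6 was 7.40% ± 4.37 in 3xTg-AD and 9.58% ± 8.81 in WT (SD, n = 6 each), a difference of -2.18 points (exact permutation p = 0.7, adjusted p = 1). It was 9.57% ± 9.75 at 12 months and 7.41% ± 1.29 at 6 months (n = 6 each, exact permutation p = 0.725, adjusted p = 1). Both differences changed direction without WT 12m replicate 12, to 1.54 and -1.56 points.

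The Lamp5 and Gad nuclei were next set against the 48039 other inhibitory nuclei, those without a Lamp5 UMI, as 2 sums per library. Genes of the rule were left out, and other genes were tested with edgeR's quasi-likelihood test with library as a term, adjusted over all 15736 genes. Calls needed both an adjusted p below 0.05 and a log2 fold change beyond 0.2 in either direction. In this comparison 4.38% of all tested genes were called higher (689) and 6.74% lower (1060). The split depended on the scaling, with 856 higher and 758 lower under RLE scaling, 793 and 667 with DESeq2, and 377 and 326 after counts were thinned to the smallest sum. Erbb4-high nuclei alone gave 679 higher and 1793 lower.

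The choice of nuclei was built into this comparison in part, since genes that go together with a gene of the rule are not independent of it. The rule barred Rgs9, Sst and Pvalb from the Lamp5 and Gad nuclei, while in the other inhibitory nuclei Rgs9, a marker of striatal neurons, was found in 37%, Sst in 8.1% and Pvalb in 4.12%. Whether nuclei from outside the hippocampus were among the Lamp5 and Gad or the other inhibitory nuclei was not tested. The comparison was therefore repeated against the 25806 other inhibitory nuclei without a UMI of Vip, Sst, Pvalb or Rgs9, an alternative added after the data were seen. Of 14688 genes tested there, 6.64% were higher (976) and 8.33% lower (1224). Values under these same exclusions are given below for named genes whose call or direction they changed.

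Of the 16 unused Lamp5 markers 13 were tested, 6 of them were higher and 2 lower, with a median log2 fold change of 0.36 against -0.07 over all genes. Hapln1 ranged from 33.4 to 102.8 CPM (median 46.9) in the Lamp5 and Gad nuclei of the 12 libraries and from 2.88 to 5.19 CPM (median 3.71) in the other inhibitory nuclei, so that the sets did not overlap. Its log2 fold change was 3.80 ± 0.18 (SE, adjusted p = 7.3e-16). Id2 ranged from 3.48 to 55.2 CPM (median 17.5) against 3.34 to 7.01 CPM (median 4.76), and these ranges did overlap. The log2 fold change of Id2 was 2.04 ± 0.25 (adjusted p = 2.5e-07), and it was higher in 11 of 12 libraries. Npy (1.57 ± 0.26), Dock5 (1.42 ± 0.25), Sv2c (1.19 ± 0.09) and Nos1 (0.91 ± 0.15) were also called higher. The lower markers were Npas1 (-0.70 ± 0.21), a factor of several interneuron and pallidal classes, and Pax6 (-0.99 ± 0.31).

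**Figure D4:**
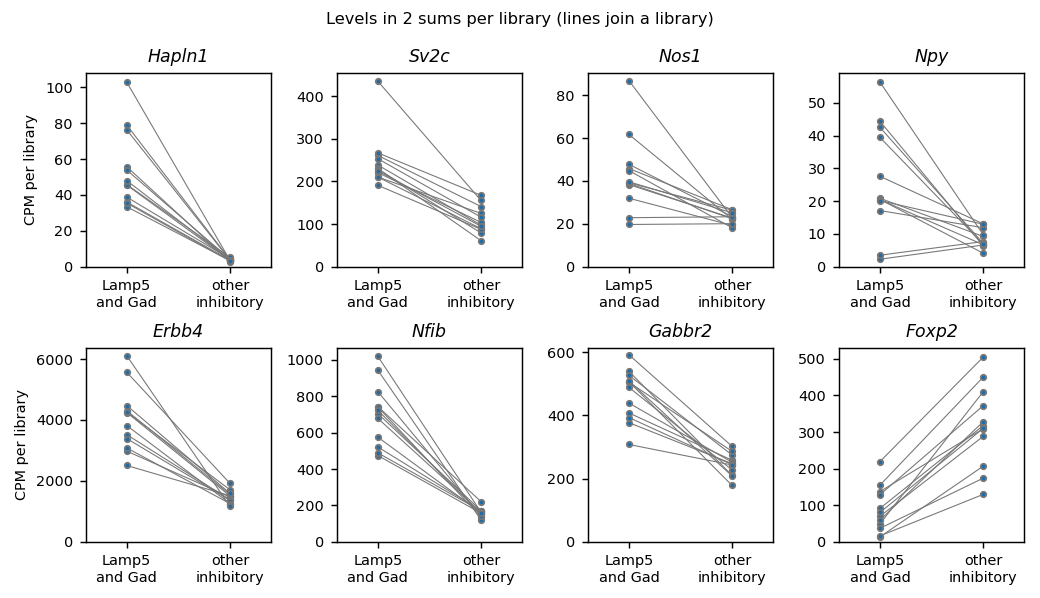
Each line joins the Lamp5 and Gad nuclei and the other inhibitory nuclei of 1 library, and the y axes give CPM in linear scale from 0. Hapln1, Sv2c, Erbb4, Nfib and Gabbr2 are higher in the Lamp5 and Gad nuclei of 12 of 12 libraries, Nos1 and Npy in 10 of 12, and Foxp2 is lower in 12 of 12.

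Against the other inhibitory nuclei, most genes of caudal origin were higher, while genes of medial origin were mixed. Of 9 genes of caudal origin 8 were tested and 6 were higher, with none lower. Egfr stood at 158.7 ± 82.9 CPM (SD, n = 12) against 17.7 ± 4.87 CPM, Nfib, a nuclear factor, at 703.5 ± 172 against 160.3 ± 24.4 CPM, and Adarb2, close to its limit, at 1731 ± 643 against 1244 ± 135 CPM (log2 fold change 0.38 ± 0.13, adjusted p = 0.045; 0.20 and adjusted p = 0.29 under the same exclusions). Of the 7 genes of medial origin 3 were higher, among them Maf (log2 fold change 2.08 ± 0.12) and Nxph1, a neurexin ligand (0.81 ± 0.09), and 1, Sox6, was lower (-1.52 ± 0.14). Of 8 telencephalic interneuron genes, Erbb4 (4020 ± 1049 against 1470 ± 210.5 CPM), Dlx6os1 (239.3 ± 61.9 against 92.0 ± 13.6 CPM) and Dlx1 (38.2 ± 18.9 against 16.9 ± 4.37 CPM) were higher and none was lower. Under the same exclusions 6 of the 8 were higher.

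Receptors and channels were mixed in direction. Of 9 GABAB receptor and GIRK channel genes, Gabbr2, a GABAB receptor subunit, was higher in 12 of 12 libraries (log2 fold change 0.92 ± 0.08, with 244 ± 34.9 CPM in the other inhibitory nuclei), and Kctd16, its auxiliary subunit, stood at 1358 ± 172 against 805.4 ± 103 CPM (0.75 ± 0.07). Kcnj6 (0.55 ± 0.08) and Kcnj3 (0.26 ± 0.08, but 0.19 and adjusted p = 0.099 under the same exclusions), which form GIRK channels, were also higher, and Kctd8, another auxiliary subunit, was lower (-1.27 ± 0.13). Of 13 GABAA receptor genes 5 were higher, among them Gabra5 (0.73 ± 0.11), Gabra4 (0.54 ± 0.10) and Gabrb2 (0.41 ± 0.06), and 1, Gabra3, was lower (-0.73 ± 0.09). Of 19 glutamate receptor genes 5 were higher and 4 lower, with Grik1 (1.37 ± 0.12) and Grin2a (1.22 ± 0.09) leading one side and Grin2c (-1.54 ± 0.38) and Grik3 (-0.72 ± 0.11) the other. Under the same exclusions 8 were higher and 5 lower.

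Of 21 tested potassium channel genes 5 were higher and 4 lower, including Kcnd3 (0.58 ± 0.08), an A-type channel, and Kcnc2 (-0.68 ± 0.09), a channel of fast-spiking cells. Under the same exclusions 6 were higher and 2 lower. Of 12 tested receptors for acetylcholine and serotonin 4 were higher and 3 lower. The nicotinic receptor Chrna7 (0.86 ± 0.11) was higher, as was Chrm3 (0.31 ± 0.08), which stood at a log2 fold change of -0.47 when only Erbb4-high nuclei were taken and at 0.11 (adjusted p = 0.36) under the same exclusions. Htr4 (-0.87 ± 0.11) and Chrm2 (-0.83 ± 0.12) were lower. Of the 8 nitric oxide genes Nos1 was the 1 called higher, and Gucy1a1 (-1.59 ± 0.13), Prkg2 (-0.84 ± 0.23) and Gucy1b1 (-0.34 ± 0.11), which sense and relay the gas, were lower. Under the same exclusions Gucy1b1 stood at -0.03 (adjusted p = 0.93) and Gucy1a1 at -0.82, still called. Among 10 tested genes of the Reelin pathway without Reln itself, Cdk5r1 was the 1 called higher (0.53 ± 0.15) and the receptors Vldlr and Lrp8 did not pass. Under the same exclusions 3 of the 10 were higher, Cdk5r1 (0.64), Vldlr (0.36, adjusted p = 0.017) and Dab1, the adaptor of the Reelin receptors (0.34, adjusted p = 0.0045). None of the 6 connexin and pannexin genes passed, and 1, Gja1, was lower under the same exclusions (-1.32, adjusted p = 0.014).

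Marker lists of other classes were mixed, and the striatal list depended on which nuclei were compared. Of 11 tested striatal genes 6 were lower, with none higher, but the rule had removed nuclei with Rgs9 from 1 side only. Under the same exclusions 4 were higher and 1 lower. Foxp2 (87.7 ± 61.7 against 316.5 ± 110.3 CPM) was lower in both comparisons, with log2 fold changes of -1.90 and -1.45. Rarb (120.2 ± 72.1 against 265.4 ± 188 CPM) was lower in the first (-1.03) and higher under the same exclusions (0.77, adjusted p = 0.00029). Of 13 diencephalic and midbrain inhibitory genes 7 were lower, led by Lef1 (4.27 ± 3.78 against 32.5 ± 11.1 CPM), and Zic1 was higher (log2 fold change 0.82 ± 0.16), a value of -2.18 in Erbb4-high nuclei alone and of 0.44 (adjusted p = 0.063) under the same exclusions, where 2 of the 13 were higher and 8 lower. Meis2 itself, at 571.6 ± 235 CPM, was not called, and was higher under the same exclusions (0.51, adjusted p = 0.0086). The summed levels of the marker lists averaged 520 CPM for astrocytes in the Lamp5 and Gad nuclei and 816.4 CPM in the other inhibitory nuclei, 178.9 and 165.4 CPM for oligodendrocytes, 38.0 and 36.8 CPM for microglia, and 463.9 and 339.9 CPM for excitatory neurons. The Sst and Pvalb list without those 2 genes summed to 4235 and 1753 CPM, of which Erbb4, one of its genes, made up 4020 and 1470 CPM. Of 7 astrocyte genes 4 were lower and none higher. Of 5 oligodendrocyte precursor genes 4 were lower and 1, Vcan, was higher (0.94 ± 0.15), and among 5 tested oligodendrocyte genes St18 was the 1 called (0.57 ± 0.16; 0.19 and adjusted p = 0.52 under the same exclusions). Of 5 tested excitatory neuron genes 2 were higher, Camk2a among them (0.41), which turned to the other direction in Erbb4-high nuclei alone. Their part in the results was not tested.

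Among all tested genes, those of the lists included, the 10 called genes with the smallest adjusted p that were higher in 12 of 12 libraries were Nfib, Hapln1, Zfp536, Adamtsl1, Tcf4, Zeb2, Cacna2d1, Maf, Fgf13 and Adamts17, with log2 fold changes between 1.52 and 3.80. Zfp536 and Zeb2 are zinc finger regulators, Tcf4 a basic helix-loop-helix factor, and Cacna2d1 a calcium channel subunit that binds gabapentin. The 10 lower genes were Foxp2, Ntm, Tmem108, Rnf220, Gucy1a1, Gm28905, Tmcc3, Gm20754, Lef1 and Slit2, with log2 fold changes from -2.90 to -0.95. All 20 kept their call and direction in each of the 21 or 22 alternatives in which they were tested, the same exclusions among them. They were picked from the same counts by their small adjusted p, so this is no independent support.

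The Lamp5 and Gad nuclei were also compared with 296 Vip nuclei, another class of inhibitory neurons. These held Vip and lacked Lamp5, Sst, Pvalb and Rgs9, and arise, like many Lamp5 cells, from the caudal eminence. Of 4291 genes tested, 9.14% were higher (392) and 9.69% lower (416) in the Lamp5 and Gad nuclei. Genes of caudal origin were mixed here, with 2 of 6 tested higher and 4 lower (median log2 fold change -0.73). Those of medial origin had 1 of 4 tested higher and 2 lower. The 3 tested telencephalic interneuron genes were lower (median -0.87), and among 2 tested unused Lamp5 markers 1 was higher and 1 lower. Synpr, a synaptic vesicle protein, stood at 69.2 ± 38.6 against 974.3 ± 229.6 CPM (SD, n = 12, log2 fold change -3.92 ± 0.22, adjusted p = 8.2e-11). Wnt5b (-3.61 ± 0.17), Npas1 (-3.30 ± 0.21), Adarb2 (-2.50 ± 0.16) and Npas3 (-2.31 ± 0.14) were lower in 12 of 12 libraries. In Erbb4-high nuclei alone the log2 fold change was -1.33 for Adarb2, -3.56 for Wnt5b and -2.14 for Npas3, each still called. A library held as few as 8 Vip nuclei (WT 6m replicate 3). Bcl11b, a zinc finger factor, stood at 134.2 ± 29.6 against 17.4 ± 9.21 CPM (2.83 ± 0.20), and Adamtsl1 (3.30 ± 0.30), the glutamate receptor subunit Grin2a (1.91 ± 0.13) and Phactr1, a phosphatase and actin regulator (1.78 ± 0.11), were higher in 12 of 12.

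Adhesion genes of the synapse fell mostly on one side of that comparison. Of 15 tested, 8 were lower and 1 higher in the Lamp5 and Gad nuclei, with a median log2 fold change of -0.70 against -0.02 over all genes. Nrxn3, a neurexin, stood at 6512 ± 553 against 11833 ± 1986 CPM (-0.92 ± 0.09). Nlgn1, a neurexin partner, was the 1 that was higher (0.60 ± 0.10). GABAA receptor genes went the other way in number, with 6 of 12 higher and 3 lower, including Gabra5 (1.07 ± 0.22) and Gabra4 (1.03 ± 0.16). Of 6 genes of GABAB signalling 3 were higher, Gabbr2 (0.93 ± 0.10), Kcnj6 (0.61 ± 0.16) and Kctd16 (0.57 ± 0.10), and Kctd8 was lower (-0.68 ± 0.24). Sv2c stood at 247.6 ± 63.0 against 38.4 ± 47.1 CPM (2.82 ± 0.27). Erbb4 was lower in the mixture (-0.49 ± 0.15), but its log2 fold change was 0.85 in the Erbb4-high nuclei, which were picked on that gene.

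Within the Lamp5 and Gad nuclei, the 38 with Lhx6 were set against the 444 without. Of 2877 genes tested, 4.14% were higher (119) and 6.88% lower (198), and with RLE scaling the numbers were 145 and 174. A library contributed as few as 1 nucleus with Lhx6. Galntl6, a glycosyltransferase, stood at 9038 ± 2508 against 2548 ± 794 CPM (SD, n = 12, log2 fold change 1.81 ± 0.23, adjusted p = 1.5e-05), and Nxph1 at 3990 ± 1259 against 1261 ± 293.9 CPM (1.62 ± 0.21). Dchs2 (1.405 ± 0.19), Osbpl3 (1.63 ± 0.22) and Astn2 (1.24 ± 0.20) were also higher in 12 of 12 libraries. No Meis2 UMI was counted among 416110 UMIs of the nuclei with Lhx6, against 2841 among 4389630 UMIs of the others. A Meis2-positive nucleus often held many Meis2 UMIs, so 38 nuclei set no firm limit on the fold difference. Kcnq5, a potassium channel, stood at 354.8 ± 203.2 against 1561 ± 345.2 CPM (-2.11 ± 0.27), and Cntn3, Unc13c, Rmst, Pbx3 and Grm7 were lower too.

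The same contrast within Erbb4-high nuclei gave 32 higher and 18 lower genes of 999 tested. Dchs2 (log2 fold change 1.38), Galntl6 (0.86) and Astn2 (0.78) stayed called higher there and Kcnq5 (-2.21) and Grm7 (-1.47) lower. Nxph1 (0.56, adjusted p = 0.093) and Osbpl3 (0.48, adjusted p = 0.24) did not pass. Cntn3, Unc13c, Rmst and Pbx3 have no value in that contrast.

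Genotype was compared last, within each age and over both. At 6 months 2 of 6517 genes were called (0.0307%), at 12 months 3 of 6395 (0.0469%), and over both ages, with age as a term, 9 of 6388 (0.141%). The mouse genes that correspond to the transgenes come first. Over both ages, App, the amyloid precursor, stood at a log2 fold change of 0.00 ± 0.11 (SE) and Mapt, which encodes tau, at -0.05 ± 0.12, and neither passed. App ranged from 517.3 to 612.5 CPM in the 6 3xTg-AD libraries and from 537.9 to 645.6 CPM in the 6 WT libraries, so that the genotypes overlapped over both ages, while at 6 months alone they did not overlap (592.7 to 612.5 against 537.9 to 570.8 CPM; log2 fold change 0.17 ± 0.16, adjusted p = 0.89). The counts are of mouse genes, and reads of the human transgenes could not be told apart here.

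The genes called lower in 3xTg-AD over both ages, Cfap54, Bet1 and Sav1, were lower in other inhibitory nuclei as well. Cfap54, a cilium-associated gene (chromosome 10, 92775619 to 93081618, GRCm38), stood at 24.5, 54.8 and 38.7 CPM in 3xTg-AD 6m, against 127.6, 111.5 and 90.5 CPM in WT 6m. At 12 months it stood at 51.6, 56.3 and 47.3 CPM, against 152.9, 235.5 and 128.9 CPM. The 2 genotypes did not overlap in any library. Its log2 fold change was -1.71 ± 0.27 at 12 months (adjusted p = 0.029), where it kept its call in 7 of 16 alternatives. Over both ages it was -1.58 ± 0.19 (adjusted p = 0.00086), and -1.37 ± 0.05 in other inhibitory nuclei.

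Bet1, a membrane fusion protein of the early secretory path (chromosome 6, 4076899 to 4086972), ranged from 4.17 to 21.1 CPM in the 6 3xTg-AD libraries and from 34.2 to 62.6 CPM in the 6 WT libraries (log2 fold change -1.82 ± 0.28, adjusted p = 0.0097; -1.72 ± 0.09 in other inhibitory nuclei). Sav1, a scaffold of the Hippo pathway (chromosome 12, 69965012 to 69987002), ranged from 13.5 to 23.6 CPM against 34.1 to 52.3 CPM (-1.17 ± 0.22, adjusted p = 0.038; -1.13 ± 0.12 in other inhibitory nuclei). Neither range overlapped. Over both ages Cfap54 was called in every one of its 21 alternatives and Bet1 in its 16, while Sav1 lost its call in 9 of 16.

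Among the genes that were higher in 3xTg-AD over both ages were Dgki, Rnf152, Gm15594, Cnksr2 and Pde1c. Dgki, a diacylglycerol kinase, ranged from 492.5 to 758 CPM in 3xTg-AD and from 327 to 463.1 CPM in WT, without overlap (log2 fold change 0.74 ± 0.12, adjusted p = 0.018), beside 0.44 ± 0.13 in the other inhibitory nuclei, where it did not pass (adjusted p = 0.105). Rnf152, a ubiquitin ligase, stood at 164, 109.7 and 89.7 CPM in 3xTg-AD 6m and at 41.6, 25.02 and 24.4 CPM in WT 6m, the 1 gene called higher at that age (2.005 ± 0.30, adjusted p = 0.021). At 12 months its groups overlapped (53.8, 125.1 and 70.9 against 59.3, 36.0 and 31.6 CPM). Over both ages its log2 fold change was 1.47 ± 0.28, beside 1.54 ± 0.26 in other inhibitory nuclei. Gm15594, an antisense transcript (1.55 ± 0.28, beside 1.91 ± 0.28 in other inhibitory nuclei; reads of overlapping genes may be shared), Cnksr2, a synaptic scaffold (0.75 ± 0.14, beside 0.66 ± 0.25 in other inhibitory nuclei, adjusted p = 0.21), and Pde1c, a phosphodiesterase (1.92 ± 0.38), overlapped between genotypes. In other inhibitory nuclei the log2 fold change of Pde1c was 0.63 ± 0.35 (adjusted p = 0.40), and the difference between the classes did not pass (adjusted p = 1). Within the Lamp5 and Gad nuclei Pde1c stood at 447.6 CPM in the Meis2-positive nuclei against 70.7 CPM in the others, and the mean share of Meis2-positive nuclei was 52.7% in 3xTg-AD and 45.8% in WT at 6 months and 41.4% and 33.6% at 12 months. The part of that mixture in the Pde1c call was not tested. Of the genes named here for both ages, 3 passed the filter on low counts in Erbb4-high nuclei alone. Cfap54 stayed called there (-2.30, adjusted p = 0.002), while the log2 fold changes of Dgki (0.36) and Cnksr2 (-0.12) did not pass. Pde1c lost its call in 13 of 19 alternatives, Cnksr2 in 12 of 21, Rnf152 in 10 of 19, Gm15594 in 9 of 19, and Dgki in 9 of 21.

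**Figure D5:**
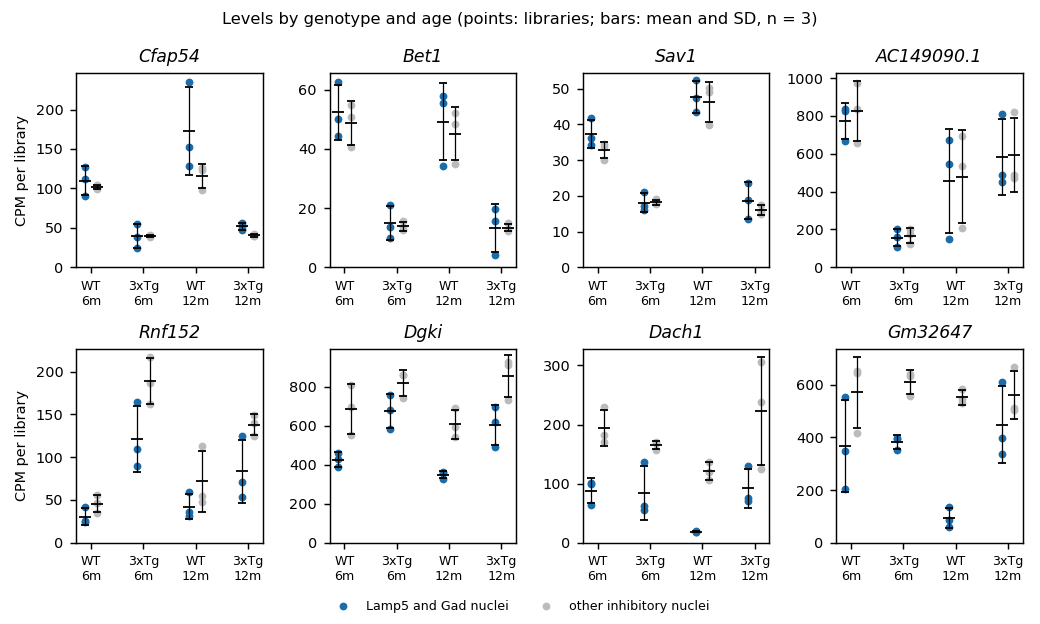
Points give the CPM of each library (y axes, linear from 0) for 8 genes in the Lamp5 and Gad nuclei (blue) and the other inhibitory nuclei (grey) of the 4 groups, with bars for the mean and SD of 3 libraries. Cfap54, Bet1 and Sav1 are lower and Dgki higher in the Lamp5 and Gad nuclei of all 6 3xTg-AD libraries, Dach1 and Gm32647 are low in WT 12m in the Lamp5 and Gad nuclei, and AC149090.1 is lower in 3xTg-AD at 6 months.

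At 12 months, Dach1, a transcriptional regulator, stood at 130.1, 75.1 and 70.9 CPM in 3xTg-AD and 18.2, 19.6 and 18.4 CPM in WT (log2 fold change 2.29 ± 0.35, adjusted p = 0.029). At 6 months the values were 137.1, 54.8 and 61.6 against 63.8, 100.1 and 100.9 CPM, and the log2 fold change was -0.05 ± 0.31. Gm32647, a long noncoding RNA, stood at 399.2, 611.1 and 334.9 against 134.6, 85.0 and 60.5 CPM at 12 months (2.23 ± 0.31, adjusted p = 0.023) and differed by 0.07 ± 0.25 at 6 months. In Erbb4-high nuclei the 12-month value of Gm32647 was 0.71 (adjusted p = 0.96). Dach1 lost its 12-month call in 6 of 13 alternatives and Gm32647 in 5 of 16, with adjusted p-values of up to 0.279 and 0.958. AC149090.1 was lower in 3xTg-AD at 6 months, at 200.7, 162.3 and 109 against 665.5, 825.7 and 835.4 CPM (-2.27 ± 0.21, adjusted p = 7.8e-05). At 12 months WT replicate 8 fell to 147.2 CPM beside 675.3 and 544.4 CPM, the 3xTg-AD values were 448.5, 486 and 811.6 CPM, and the log2 fold change was 0.29 ± 0.39. In the other inhibitory nuclei of that WT library AC149090.1 stood at 209 CPM, beside 692.1 and 535 CPM in the remaining WT libraries. The change of the genotype difference with age was not called for any of these 3 genes (adjusted p = 0.237 for AC149090.1, 0.299 for Dach1 and 0.237 for Gm32647).

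Of the gene lists, those of receptors, channels and the Reelin pathway are given here for genotype. Over both ages none of 12 tested GABAA receptor genes, 20 potassium channel genes, 18 glutamate receptor genes or 11 Reelin pathway genes was called, which says nothing of the other lists. None of the 6 tested genes of the rule was called. The nuclei were chosen by UMIs of these genes, so this test cannot tell whether genotype alters them. Beside these comparisons, the summed level of the oligodendrocyte markers was 155.4 to 320.6 CPM in 3xTg-AD 6m, 69.6 to 129.7 in WT 6m, 83.4 to 354.6 in 3xTg-AD 12m and 140.6 to 234.1 in WT 12m, beside the shares of Meis2-positive nuclei given above. Their part in the genotype results was not tested. The interaction of genotype and age gave 0 of 7443 genes (0% called) by edgeR, with 446 at an unadjusted p under 0.05 and 2 called by DESeq2. The difference between Lamp5 and Gad nuclei and other inhibitory nuclei in the genotype effect gave 0 of 15747 (0% called) by edgeR, with 664 at an unadjusted p under 0.05 and 0 called by DESeq2. Many genes pass an unadjusted limit of 0.05 by chance alone, so these unadjusted counts are not read as results.

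Age alone gave no call. Between 12 and 6 months, with genotype as a term, 0 of 6388 genes (0%) were called by edgeR, with 342 at an unadjusted p under 0.05, a limit that many genes pass by chance alone. DESeq2 called 0. The medians over lists ran from a log2 fold change of 0.44 for the 7 tested genes of caudal origin to -0.36 for the 1 tested immediate-early gene, beside -0.00184 over all genes, and no member of any list passed.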

How the data were processed

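The authors deposited, for each library, a matrix of UMI counts made with Cell Ranger 6.1.1 on mm10 per the submitters' processing notes. Their later ambient RNA removal, filters and integration were not repeated. The nuclei that met the rule were summed per library. Sums were tested with edgeR 4.0.16 (TMM scaling, filterByExpr, quasi-likelihood test) in R 4.3.3, with Benjamini-Hochberg adjustment over all tested genes. Calls needed an adjusted p below 0.05 with a log2 fold change beyond 0.2 either way. DESeq2 1.42.0 was an alternative. For shares, libraries were permuted exactly (two-sided), within ages or genotypes where both were pooled. CPM were computed from each sum's counts and total. No doublet caller was run. As an alternative, the 10% of each library's members with the most UMIs and members with 5 or more UMIs over 3 glial genes were left out. Nuclei compared with the members were also held to the same exclusions, an alternative added after the data were seen. Pairs of libraries shared 29 to 105 cell barcodes. Scripts were tested on simulated data.

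Named genes were the rule's genes, listed genes, App and Mapt, and, per test, up to 10 called genes per direction with the smallest adjusted p and no overlap between groups (in paired tests, the same direction in every library). Rnf152, Gm15594, Cnksr2 and Pde1c, whose groups overlap over both ages, and the genes leading each kind were named after their values were seen. The members and lists were chosen with earlier results of these data known. Positions are from GENCODE vM21 (GRCm38), which matched 352 of 353 genes looked up. Some genes that the rule would name, and some counts of lists that hold them, are not reported here.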

Additional observations from a re-analysis of the deposited data

Results flagged for a closer look

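Among 26 sets of 6 libraries examined, 4 held a library far from the others. The sets share libraries and the Lhx6 shares rest on few nuclei, so no chance rate is set beside this number. The share of Lamp5 and Gad nuclei with Lhx6 was 27.3% in WT 12m replicate 12, far above the other WT libraries, and its gap to the nearest was 0.834 of the whole range. Among the libraries of 6 months, that share was highest in 3xTg-AD 6m replicate 5 at 10%, with a gap of 0.821 of a narrow range. It came from 4 of 40 nuclei, beside 2 to 4 nuclei with Lhx6 in each of the others. Gm15594, an antisense transcript, stood at 114.3 CPM in 3xTg-AD 6m replicate 5, above the other 3xTg-AD libraries, and at 54.6 CPM in WT 6m replicate 7, above the other WT libraries.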

How the results depend on the processing

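No paired analysis was possible because each replicate number belongs to 1 library and the groups of genotype and age share none, while comparisons of 2 sums of nuclei within a library had library as a term. Small counts limit the share comparisons, and 28 to 57 nuclei per library limit the genotype tests. The cause of the changes below was not tested. Taking only Erbb4-high nuclei (chosen after seeing the data) turned the 3xTg-AD against WT difference in share to -0.00025 points at 6 months, -0.0142 at 12 months and -0.00721 over both ages. Leaving out nuclei below 3000 UMIs and thinning the rest to that depth gave -0.00669 at 6 months and -0.000887 over both. Requiring 2 unused markers gave -0.0142 at 12 months and -0.00242 over both, requiring 2 Lamp5 UMIs gave -0.00279 at 12 months, and shares of inhibitory nuclei gave -0.366 at 12 months and -0.0693 over both. Without members of many or glial UMIs the age difference was -0.00664. The Lhx6 share difference by genotype turned to 2.52 (2 unused markers), 3.61 (Erbb4-high) and 1.45 (2 Lhx6 UMIs), and by age to -1.58 (2 unused markers) and -1.30 (Erbb4-high).

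Without any filter on low counts, calls rose to 75 at 6 months, 62 at 12 months, 90 over both ages, 40 for age, 52 for the interaction, 1298 against Vip nuclei, 1204 for Lhx6 and 7 for the difference between classes. With 2 Lamp5 UMIs the numbers were 4 at 6 months, 1 at 12 months, 2 over both, 169 for Lhx6 and 10 for the difference between classes. With 2 unused markers they were 5 at 12 months, 3 over both and 1 for the interaction. Erbb4-high nuclei gave 1 over both ages, 1 for age, 50 for Lhx6 and 3 for the difference between classes. Thinned sums gave 1 at 12 months, 1 over both, 703 against other inhibitory nuclei, 306 against Vip nuclei and 41 for Lhx6. DESeq2 gave 16 over both ages and 2 for the interaction. All 12 libraries in 1 fit gave 0 at 6 months and 5 at 12 months. Without members of many or glial UMIs, 1 gene was called for the interaction and 3 for the difference between classes. Cnksr2 turned to -0.12 over both ages in Erbb4-high nuclei.

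Leaving out 1 library at a time, the genotype difference in share ran from 0.0259 to 0.0779 at 6 months, -0.029 to 0.0663 at 12 months and 0.0117 to 0.0594 over both ages, and the age difference from -0.0156 to 0.032. At 12 months it turned negative without 3xTg-AD 12m replicate 2, replicate 6 or WT 12m replicate 4 (-0.029, -0.0254 and -0.00785). The age difference turned negative without 3xTg-AD 12m replicate 2 (-0.0156) or 6 (-0.0138), 3xTg-AD 6m replicate 5 (-0.00832), WT 6m replicate 11 (-0.0124) or WT 12m replicate 12 (-0.0063). Without 3xTg-AD 12m replicate 10 the value over both ages was 0.0594 (exact permutation p = 0.02). The Lhx6 differences ran from -4.55 to 1.54 (genotype) and -1.56 to 4.52 (age), both turning without WT 12m replicate 12. Calls at 6 months ran from 1 (without WT 6m replicate 11) to 8 (3xTg-AD 6m replicate 1), with 4 without WT 6m replicate 3. At 12 months they ran from 0 (3xTg-AD 12m replicate 2 or 6, WT 12m replicate 8) to 16 (3xTg-AD 12m replicate 10), with 1 without WT 12m replicate 4 and 14 without replicate 12. Over both ages they ran from 2 (3xTg-AD 6m replicate 5, 3xTg-AD 12m replicate 6, WT 6m replicate 11, WT 12m replicates 8 and 12) to 11, with 3 without WT 6m replicate 3 and 5 without 3xTg-AD 6m replicate 1 or WT 12m replicate 4. They ran from 0 to 0 for age and for the difference between classes, 0 to 2 for the interaction (2 without 3xTg-AD 6m replicate 1 or WT 6m replicate 11, 1 without 3xTg-AD 12m replicate 10), 1509 to 1709 against other inhibitory nuclei, 701 to 771 against Vip nuclei and 231 to 374 for Lhx6.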
